A study of Mus musculus with 12 samples.

Results

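Granulocyte-monocyte progenitors (GMP), which reside in bone marrow and give rise to neutrophils and monocytes, were compared between a transplanted and a native source. The comparison comprised 6 of the 12 arrays of the series: 2 arrays of transplanted GMP carrying ERt2, set against 4 arrays of native GMP. The arrays were chosen by their titles. All 6 arrays came from cells of the same genotype, Runx1fl/fl-Tg(vav-Cre), in which Cre, driven by the vav promoter in blood cells, deletes the transcription factor gene Runx1. The 4 native arrays (called native below) held GMP sorted from the marrow of such mice, with no treatment named in the labels. For the 2 ERt2 arrays, marrow of Runx1fl/fl-Tg(vav-Cre) mice was taken on day 3 after 5-fluorouracil at 150 mg/kg, infected with a MIG retrovirus that expresses GFP with ERt2, and transplanted into lethally irradiated mice. After 6 weeks tamoxifen was injected at 49.5 μg per g body weight on 3 consecutive days, marrow was harvested after a further 24 h, and living GMP with GFP were sorted from it. The protocol gives tamoxifen to only part of the transplanted mice, whereas the description of every transplanted array names tamoxifen or its active metabolite 4-OHT, so the ERt2 arrays are taken as treated. ERt2 is a mutated hormone-binding domain of the oestrogen receptor that responds to tamoxifen metabolites and not to oestradiol. Fused to RUNX1 it makes an inducible RUNX1, and alone, as here, it serves as the control for that protein. The other 6 arrays held 4 native wild-type GMP, Runx1+/+-Tg(vav-Cre), and 2 transplanted GMP with RUNX1-ERt2 in the same Runx1-deleted background, also with tamoxifen.

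Transplantation, irradiated host, 5-fluorouracil, retroviral infection, GFP sorting, tamoxifen and slide all differed together between ERt2 and native GMP, so their parts in any difference below cannot be told apart. The 4 native arrays lay on slides 1 and 2 (2 arrays each, shared with the wild-type arrays), the ERt2 arrays on slide 3 and the RUNX1-ERt2 arrays on slide 4. Nothing in the labels says whether replicates came from separate animals, so p-values measure only the spread between these arrays. In sorted cells measured in bulk, fewer cells of a type and less RNA per cell cannot be told apart.

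GMP are defined by surface markers and lie between early multipotent progenitors and the first granule-making cells, the promyelocytes. As these cells mature, primary granule proteins such as myeloperoxidase and elastase are made first, under the factors C/EBPα and PU.1. Secondary granule proteins such as cathelicidin and lipocalin 2 follow, under C/EBPε. Genes of stem cells, megakaryocytes and lymphocytes are silenced along the way. Immediate early genes such as Fos and Egr1 respond within minutes to growth factors and to handling of cells.

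Signals were log2 values relative to each array's 75th percentile (a level of 0 equals that percentile), and 17212 genes were tested with limma, 1 probe per gene. A difference is ERt2 minus native on that log2 scale. ERt2 arrays were dimmer, with median signals of 40.2 and 49.1 against 66.0 to 92.5 on native arrays, and 53.5% to 55.1% of their probes were well above background against 60.2% to 63.1%. Across probes the ERt2 arrays correlated with each other at 0.991 and with native arrays at 0.912 to 0.936, and native arrays with each other at 0.972 to 0.993. All 10 GMP markers, among them Cd34, Kit and Mpo, were well above background on every array of both groups, and their sum was 347 to 502 times the 75th percentile on native arrays and 891 to 1010 times on ERt2 arrays.

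At an adjusted p under 0.05, 3482 genes were higher in ERt2 GMP (20.2% of those tested) and 3181 were lower (18.5%), 38.7% in all. At least 2-fold changes were fewer among higher genes, 1329 (7.72%), than among lower genes, 2164 (12.6%). The arrays of ERt2 and native GMP did not overlap for 63.5% of all genes tested, and the median difference over all genes was 0.08. Among called genes, 1 had overlapping arrays. Where arrays do not overlap, the sign is the same against the native arrays of either slide. That 0 called genes had opposite signs against slides 1 and 2 is therefore no further check. Of the lower genes, 738 were not well above background on either ERt2 array. Of the higher genes, 37 were below it on all 4 native arrays. Such genes passed the filter only through the group where they were well above background, and ERt2 arrays were dimmer. These counts therefore do not weigh losses against gains.

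The GC content of the probe moved with the difference. The median difference was -0.27 for probes of 34% to under 36% GC, 0.10 for 40% to under 44% and 0.57 for 52% to under 56%, then -0.30 for the 158 genes of 56% or more. The same course appeared in RUNX1-ERt2 minus wild-type GMP, from -0.22 to 0.38 and -0.18. With the trend over GC removed, 1723 genes were higher and 3227 lower, so the balance of rises and falls depends on it. Scaling to the array median gave 4477 higher and 2513 lower. Probes just below the minimum of 34%, at 33.3%, had a median of -0.28 (57 probes) and those just above it, at 35%, a median of -0.27 (5126 probes), while all 477 detected probes below 34% had a median of -1.42.

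**Figure D1:**
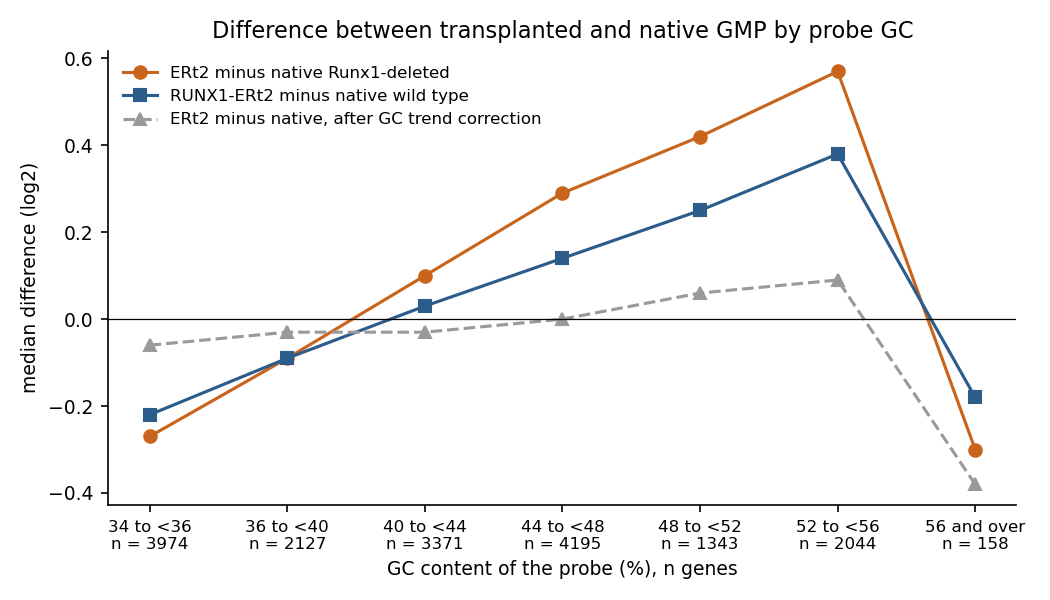
Median log2 difference (vertical axis) of the genes in 7 classes of probe GC content (horizontal axis, percent, number of genes below), for ERt2 minus native Runx1-deleted GMP, RUNX1-ERt2 minus native wild-type GMP and the first of these after removal of the GC trend. Both uncorrected lines climb from -0.27 and -0.22 at the lowest GC to 0.57 and 0.38 at 52% to under 56% and drop at the highest GC.

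The probe of Runx1, the gene deleted in both groups, at chr16:92605785-92605844 (mm9), read 3.12, 2.87, 3.41 and 4.20 on the native arrays and 3.29 and 3.14 on the ERt2 arrays. The groups overlapped, and the difference of -0.18 (SE 0.38) did not pass (limma, adjusted p 0.73). A second Runx1 probe differed by -0.09. Wild-type arrays read 1.18, 1.32, 2.23 and 2.13 for the same probe, below every native Runx1-deleted and ERt2 array. The labels do not name the floxed exons, so it is unknown whether either probe lies in the deleted part, and the level does not check the genotype. Among its relatives and partners, Runx2 (0.15), the binding partner Cbfb (0.24) and the corepressor Cbfa2t2 (-0.37) did not pass. Runx3 was lower by 0.95 on the log2 scale (adjusted p 0.00223), although its other probe differed by 0.89 in the opposite direction and the mean of its probes did not pass (0.927). The corepressor Cbfa2t3 (ETO2) was lower by 1.08 (adjusted p 0.0223), a call that was lost without the second ERt2 array (0.117), with the native arrays of slide 1 alone (0.0664) and with the mean of all its probes (0.233).

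Many neutrophil granule genes were higher in ERt2 GMP. Of 15 measured primary granule genes, 12 were higher and 0 lower, with a median difference of 1.44, against 20.2% higher and a median of 0.08 over all genes. Of 30 late neutrophil genes (secondary and tertiary granules, NADPH oxidase), 12 were higher and 0 lower, with a median of 2.28. The GC-corrected counts were 9 and 10 higher. At an unadjusted p under 0.05 in limma, 13 and 20 were higher and still 0 lower. The late neutrophil median was 2.64 against the native arrays of slide 1 and 1.8 against those of slide 2. Markers of late neutrophils, 8 in all, summed to 21.2 to 257 times the 75th percentile on native arrays and to 510 to 610 times on ERt2 arrays, with Camp alone past the threshold, and the part of such cells in the sorted samples was not tested.

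Fcnb, which encodes ficolin B, a lectin that activates complement, read -3.69, -2.29, -1.59 and -2.85 on native arrays and 1.70 and 1.45 on ERt2 arrays. Its ERt2 arrays were both far above every native array, at a difference of 4.18 (SE 0.99, adjusted p 0.00817). Hp (haptoglobin, which binds free haemoglobin) read 2.80, 3.15, 3.78 and 2.37 against 5.75 and 5.89, a difference of 2.79 (SE 0.61, adjusted p 0.0053). Prss57, a granule serine protease, was higher by 2.64 (adjusted p 0.00734) and the granulocyte surface gene Igsf6 by 2.25 (adjusted p 0.0194, and 0.0751 without the second ERt2 array). Among other genes of the primary granule list, Elane (neutrophil elastase) was close to Igsf6 at 2.21. Smaller differences were those of Prtn3 (proteinase 3) at 1.58, Ctsg (cathepsin G) at 1.44 and Mpo (myeloperoxidase) at 0.83.

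Camp, the cathelicidin antimicrobial peptide of secondary granules (probe at chr9:109749911-109749970), read -0.01, 2.08, 4.32 and 3.65 on native arrays and 7.29 and 6.82 on ERt2 arrays. The native arrays spanned more than 4 log2 units, lowest on the first array of slide 1, yet none reached the ERt2 arrays. Its difference was 4.55 (SE 1.34, 23.4-fold, adjusted p 0.0218), 6.02 against slide 1 and 3.07 against slide 2. Chil3, a chitinase-like secreted protein, read 0.13, 2.20, 4.16 and 2.83 against 7.16 and 6.58 (difference 4.54, SE 1.31, adjusted p 0.0201). Lcn2, the iron-scavenging lipocalin 2, read -1.31, 0.54, 3.41 and 1.99 against 5.83 and 4.92 (difference 4.22, SE 1.34, adjusted p 0.0301). With either ERt2 array left out, the calls of all 3 genes were lost (adjusted p 0.0722 and 0.0579 for Camp, 0.0708 and 0.0521 for Chil3, 0.105 and 0.0604 for Lcn2), and that of Lcn2 also after GC correction (0.056). Pglyrp1, a bactericidal peptidoglycan-binding protein, varied less and kept its call: it read -0.26, 0.29, 1.05 and -0.20 on native arrays and 3.46 and 3.37 on ERt2 arrays (difference 3.20, SE 0.59, adjusted p 0.00213). Subunits of the NADPH oxidase that generates superoxide were higher as well, namely Cybb (2.90), Ncf1 (1.96), Cyba (1.74) and Ncf4 (1.69).

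**Figure D2:**
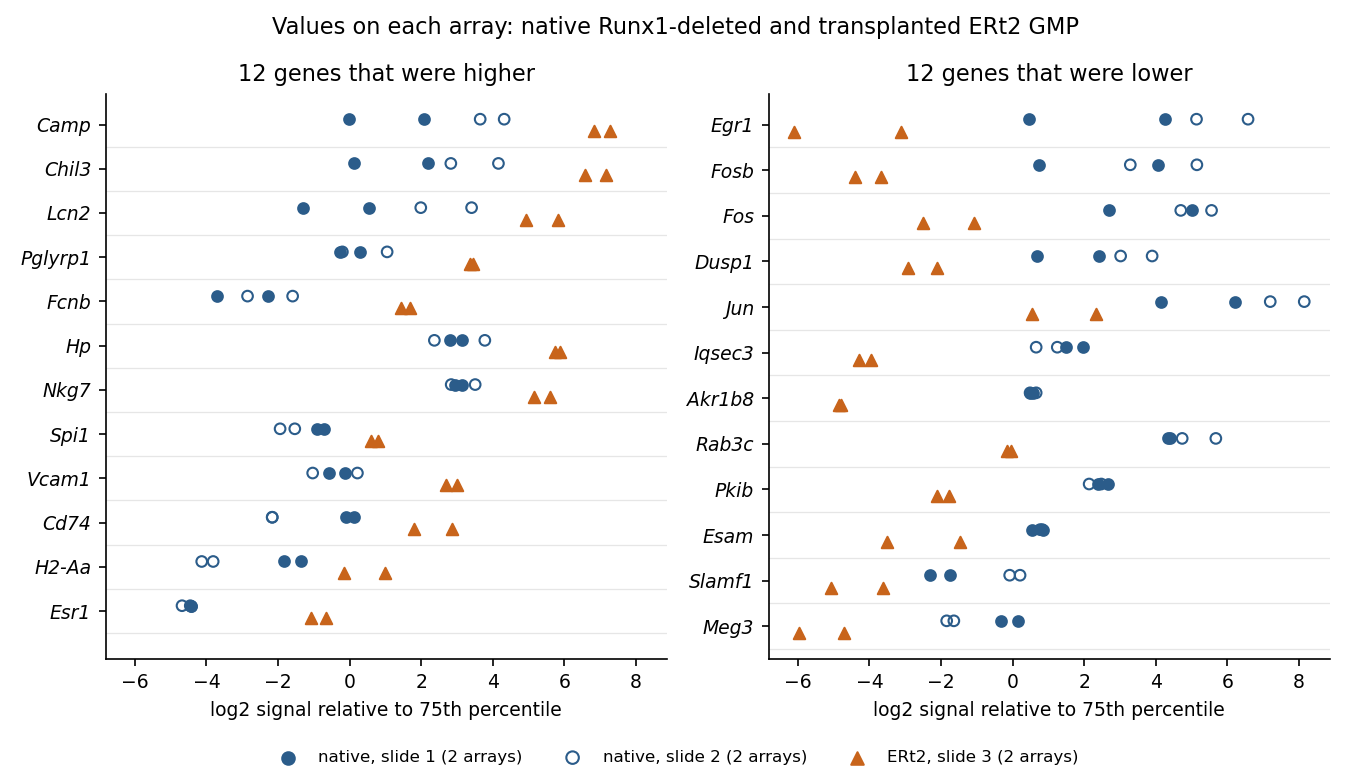
Log2 signal relative to the array's 75th percentile (horizontal axis) of 12 genes that were higher and 12 that were lower, with 1 point per array: filled circles are native Runx1-deleted GMP of slide 1, open circles those of slide 2, triangles ERt2 GMP. Triangles lie outside the circles for all 24 genes, and the circles of Camp, Chil3, Lcn2, Egr1 and Fosb are spread over more than 4 log2 units.

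Some factors and surface genes of GMP identity were also higher. Of 17 measured GMP identity genes, 7 were higher and 0 lower (10 and 0 at an unadjusted p under 0.05 in limma, median 0.90), and 10 did not pass. Over all genes 20.2% were higher. The 7 were Nkg7, Fcgr3, Cebpe, Spi1, Gfi1, Mgst1 and Cebpa. Cebpe (C/EBPε) read 3.46, 3.49, 3.24 and 2.35 on native arrays and 5.27 and 5.31 on ERt2 arrays, a difference of 2.16 (SE 0.42, adjusted p 0.00272). Spi1 (PU.1) read -0.91, -0.72, -1.53 and -1.94 against 0.80 and 0.60, a difference of 1.98 (SE 0.46, adjusted p 0.00743). Both genes were higher on each ERt2 array than on any native array. Nkg7, a granule membrane protein also found in cytotoxic lymphocytes, was higher by 2.25 (SE 0.32, adjusted p 0.000464), and Fcgr3, an Fcγ receptor that belongs to the surface phenotype of GMP, by 2.17 (adjusted p 0.0102). Gfi1, a repressor needed for granulocyte development, was higher by 1.84 and Cebpa (C/EBPα) by 1.46. The median of the list was 0.60 against the native arrays of slide 1 and 1.73 against those of slide 2.

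The promoter of Elane is shown because its gene and that of PU.1 were higher together. It covers the 250 bases before the start of Elane at chr10:79886062-79886311, plus strand (RefSeq, GRCm38.p6), with the core bound by PU.1, GAGGAA, in capitals.
Elane: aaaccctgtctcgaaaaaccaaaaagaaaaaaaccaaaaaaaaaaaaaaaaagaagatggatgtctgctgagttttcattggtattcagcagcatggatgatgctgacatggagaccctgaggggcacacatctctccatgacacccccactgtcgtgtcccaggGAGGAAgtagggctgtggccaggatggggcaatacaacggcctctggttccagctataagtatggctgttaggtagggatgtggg
The letters GAGGAA, on either strand, stood in 8 of the 12 promoters found for measured primary granule genes (among them Mpo, Elane, Prtn3 and Ctsg), in 6 of the 9 of those that were higher, and in 23.3% of all 32851 promoters of that length. The core of RUNX sites, TGTGGT, stood in 4 of the 12 and in 14% of all. GAGGAA also stood in 14 of 25 promoters of measured late neutrophil genes and in 3 of the 8 of those that were higher. For monocyte and macrophage genes these counts were 10 of 18 and 5 of 7. A match is a description of these letters and not a bound site, and a link between PU.1 and Elane was not tested.

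Monocyte, macrophage and antigen presentation genes were partly higher. Of 25 monocyte and macrophage genes 10 were higher and 0 lower (12 and 1 at an unadjusted p under 0.05 in limma, median 1.33), and 4 were higher after GC correction. Before that correction the share higher over all genes was 20.2%. Vcam1, an adhesion molecule of macrophages and stroma, read -0.56, -0.14, 0.22 and -1.03 on native arrays and 2.99 and 2.70 on ERt2 arrays, clear of each other (difference 3.23, SE 0.71, adjusted p 0.00557), and its other probe differed by 4.08. Hmox1, the haem-degrading oxygenase of iron-recycling macrophages, was higher by 3.12 (adjusted p 0.00567) and the Fcγ receptor gene Fcgr4 by 3.04 (adjusted p 0.00328). C1qa, a chain of complement C1q that was well above background on 3 of 4 native arrays, was higher by 2.89 at an adjusted p of 0.0485 that 11 of the 23 alternatives took past 0.05. Summed over 7 measured monocyte and macrophage markers, signal was 9.22 to 27.1 times the 75th percentile on native arrays and 56.8 to 68.8 times on ERt2 arrays, and all 7 were well above background on both ERt2 arrays. The part of such cells in the sorted samples was not tested.

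Genes of MHC class II, which presents antigen to CD4 T cells, were higher in 6 cases (Cd74, H2-Aa, H2-Eb1, H2-DMa, H2-DMb1 and H2-Ab1) of the 18 measured dendritic cell and class II genes, and Cd209d alone was lower, by 1.22 with 1 of 2 ERt2 arrays well above background (median of the list 0.96). Over all genes 20.2% were higher. Cd74, the invariant chain, read 0.13, -0.10, -2.16 and -2.16 on native arrays and 2.85 and 1.81 on ERt2 arrays (difference 3.40, SE 0.81, adjusted p 0.00842). H2-Aa, a class II α chain, read -1.36, -1.84, -4.13 and -3.81 against 1.00 and -0.16 (difference 3.21, SE 1.00, adjusted p 0.0275). For both genes the native arrays of slide 1 lay above those of slide 2 and below the ERt2 arrays. The difference for H2-Aa was 2.02 against slide 1 (adjusted p 0.115) and 4.39 against slide 2, and its call was also lost without the first ERt2 array (0.113), without the third native array (0.0534) and after GC correction (0.0547). H2-DMa, which loads peptides, had no such split: it was higher by 1.10 and 1.35 against slides 1 and 2 (1.22 in all, adjusted p 0.00204). The dendritic markers Itgax, Siglech and Ccr9 did not pass, and the sum of 6 dendritic markers overlapped between groups, at 59.3 to 93.7 and 64.3 to 68.5 times the 75th percentile.

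The promoter of H2-Aa is given for the class II genes that were higher together, at chr17:34287824-34288073, minus strand (RefSeq, GRCm38.p6), the 250 bases before its start, with the Y box letters CTGATTGG in capitals.
H2-Aa: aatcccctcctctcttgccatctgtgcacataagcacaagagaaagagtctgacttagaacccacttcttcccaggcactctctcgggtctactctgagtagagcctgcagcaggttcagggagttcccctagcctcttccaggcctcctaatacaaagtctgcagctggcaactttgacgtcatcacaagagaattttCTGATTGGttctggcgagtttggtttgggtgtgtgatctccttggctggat
The same letters, on either strand, stood in 3 of the 15 promoters found for measured genes of this list. These were H2-Aa, H2-Eb1 and H2-Oa, of which H2-Oa did not pass. They stood in 2 of the 4 promoters of genes that were higher and in 3.83% of all promoters. They were also in 11 of 25 promoters of protein folding genes of the endoplasmic reticulum, so they are not particular to class II genes. H2-Eb1, a class II β chain, was higher by 2.86 (adjusted p 0.0283), by 1.79 against slide 1 (adjusted p 0.1) and 3.93 against slide 2, and at an adjusted p of 0.118 without the first ERt2 array and 0.0539 without the third native array.

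Basophil and mast cell genes went both ways, with 4 of 24 higher (Prss34, Mcpt8, Hdc and Fcer1g) and 3 lower (Il6, Gata1 and Il1rl1), no larger shares than the 20.2% and 18.5% of all genes. The median of the list was -0.18, but 0.26 against the native arrays of slide 1 and 0.25 against those of slide 2. The call of Il1rl1 was lost without the second ERt2 array (0.117). Prss34, a protease of basophils and mast cells, read -6.15, -5.32, -6.38 and -5.93 on native arrays, where it was well above background on 2 of 4, and -2.47 and -0.90 on ERt2 arrays (difference 4.26, SE 0.90, adjusted p 0.00439). Mcpt8, a basophil protease, was higher by 1.85 (SE 0.21, adjusted p 0.000106). Il6, an inflammatory cytokine, was not well above background on either ERt2 array and was at least 2.84-fold lower there (adjusted p 0.000526, and 0.107 after another background correction). Such bounds compare the brighter group's mean with the higher of the dim probe's own signal and the array's lowest signal among probes well above background. Gata1, a factor of erythroid, megakaryocyte and mast cells, was lower by 1.79 (adjusted p 0.0343), by 0.99 against slide 1 and 2.59 against slide 2, and its call was lost without the second ERt2 array (0.167), without the third native array (0.0619) and with only the 6 arrays fitted (0.0563).

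Globin and haem genes made up the higher part of the erythroid list: 6 of 35 (Alas2, Hbb-bs, Hba-a1, Hba-a2, Alad and Ppox) were higher and Gata1 lower, with a median of 0.48 and no larger share higher than the 20.2% of all genes. The median turned between slides, 0.96 against slide 1 and -0.22 against slide 2. Alas2, the first enzyme of erythroid haem synthesis, read -0.41, -1.57, -0.15 and -1.53 on native arrays and 2.19 and 1.13 on ERt2 arrays (difference 2.57, SE 0.64, adjusted p 0.00983, and 0.053 without the first ERt2 array). Globins were already bright on native arrays: Hba-a2 read 5.52 to 7.04 there and 8.42 and 7.83 on ERt2 arrays, a difference of 1.92 (adjusted p 0.0254, and 0.103 without the first ERt2 array, 0.0738 under quantile normalization and 0.0632 after GC correction). Without the first ERt2 array the calls of Hbb-bs and Hba-a1 were lost too (0.0818 and 0.103), and that of Hba-a1 also after GC correction (0.0854). Probes of Hba-a1 and Hba-a2, near-identical copies, cannot be assigned to a single gene with certainty. The sum of 7 erythroid markers was 38.2 to 111 on native arrays and 113 to 198 times the 75th percentile on ERt2 arrays; the part of erythroid cells or their RNA was not tested.

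Part of the stem cell and early progenitor genes were lower. Of 26 measured, 11 were lower and Sult1a1 alone was higher, by 2.45 (median of the list -1.05, and -0.84 and -1.05 against slides 1 and 2). The share lower over all genes was 18.5%. Esam, an endothelial and stem cell adhesion molecule, read 0.54, 0.84, 0.77 and 0.83 on native arrays and -1.47 and -3.50 on ERt2 arrays, apart by a difference of -3.23 (SE 0.64, adjusted p 0.00323). Slamf1 (CD150), a marker used to isolate stem cells, was lower by 3.37 (adjusted p 0.0068), and it was well above background on only 1 ERt2 array. Procr and Meis1 were lower by 1.15 and 1.32. The sum of 5 stem markers was 27.3 to 34.7 times the 75th percentile on native arrays and 8.02 to 14.8 times on ERt2 arrays, without overlap.

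Of 34 megakaryocyte and platelet genes 12 were lower, F10 and Tgfb1 were higher, and the list's median was -1.19 (-1.24 and -1.10 against slides 1 and 2). Over all genes 18.5% were lower. Gp1ba, a chain of the platelet receptor for von Willebrand factor, read -0.89, -0.12, -0.46 and -0.54 on native arrays and -2.52 and -4.03 on ERt2 arrays (difference -2.77, SE 0.65, adjusted p 0.00762). Cavin2, a caveola protein abundant in platelets, was lower by 3.52 (adjusted p 0.023, and 0.0972 without the second ERt2 array). Ltbp1, which binds latent TGF-β, was at least 5.24-fold lower with the probe used (limma, adjusted p 0.0415). That call was lost in 7 of the 23 alternatives, among them the fit without the second ERt2 array. A second Ltbp1 probe differed by only -0.38, so the size of the fall is uncertain. F10, coagulation factor X, was higher by 2.71 (adjusted p 0.00333), but its second probe differed by -3.33, so the gene has no settled direction. None of 6 megakaryocyte markers, Pf4 and Itga2b among them, passed, and their sum overlapped (16.8 to 27.5 and 9.07 to 18.5).

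**Figure D3:**
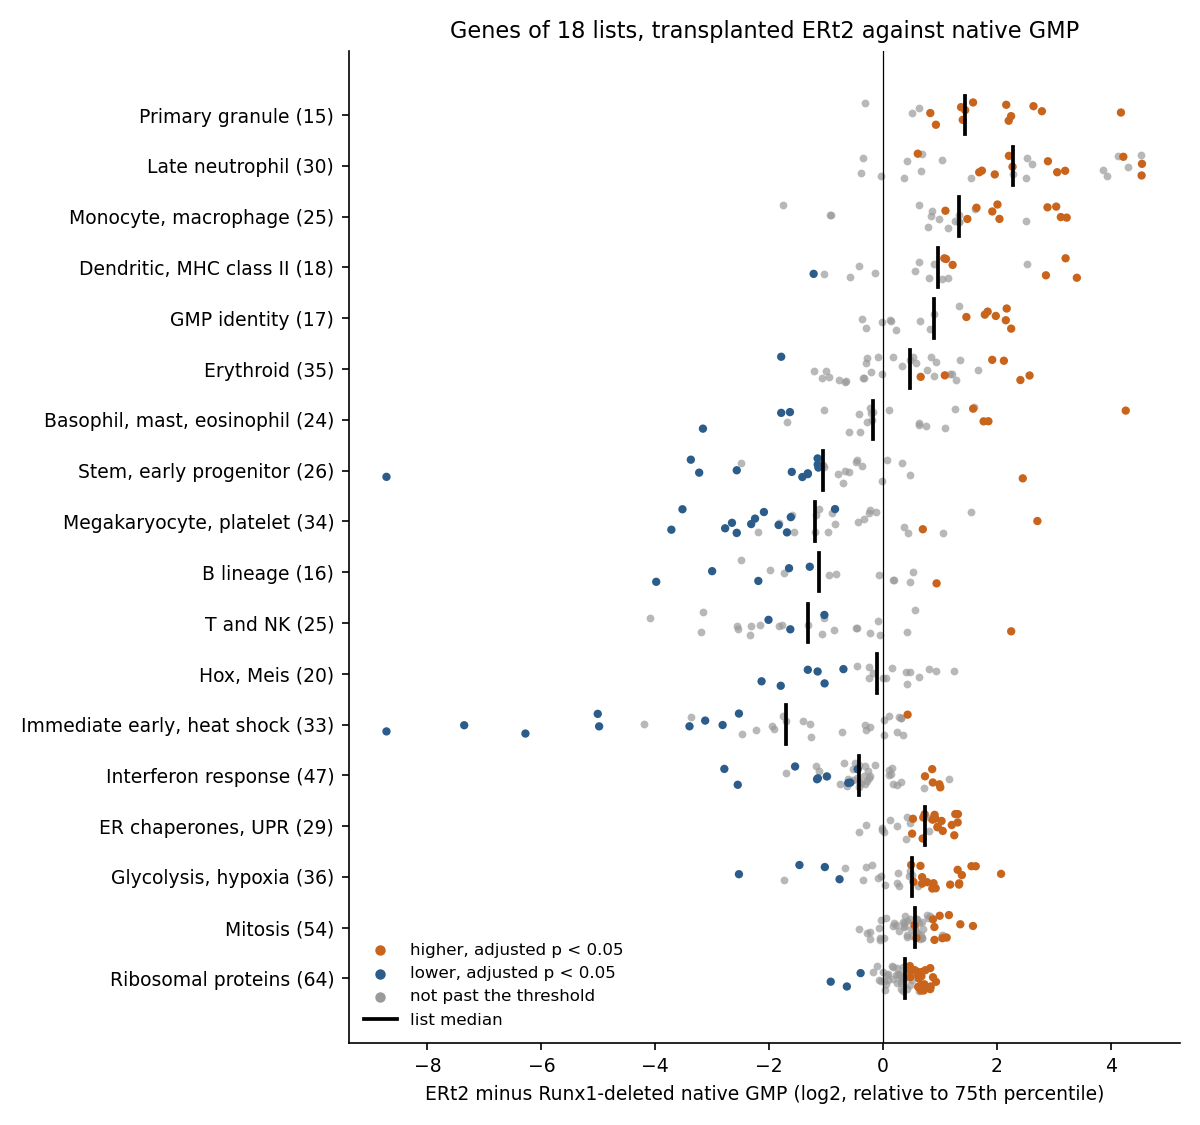
Differences between ERt2 and native Runx1-deleted GMP (horizontal axis, log2) of the tested members of 18 gene lists (vertical axis, number tested in brackets), 1 point per gene, coloured where limma's adjusted p was under 0.05, with a bar at each list's median. Granulocyte and monocyte lists lie to the right (medians 0.90 to 2.28), stem, megakaryocyte and lymphoid lists to the left (medians -1.05 to -1.32), and the immediate early list has the lowest median, -1.70.

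Lymphoid genes were lower where they passed, with an exception in each list. Of 16 B lineage genes 5 were lower (Vpreb2, Dntt, Vpreb3, Cd79a and Cd22), against 18.5% over all genes, and Cd79b was higher by 0.94. The call of Vpreb3 was lost in 9 of the 23 alternatives, and that of Cd79a, well above background on 1 of 2 ERt2 arrays, after another background correction (0.314) and without the second ERt2 array (0.0501). Dntt, the terminal transferase of early lymphoid progenitors, read 2.09, 2.63, 2.76 and 1.84 on native arrays and -0.80 and -0.55 on ERt2 arrays (difference -3.0, SE 0.50, adjusted p 0.00117). Vpreb2, a surrogate light chain gene with a near-identical copy, was at least 4.7-fold lower (adjusted p 0.00868, and 0.266 after another background correction). Of 25 T and NK cell genes, Gata3 (-2.01), the killer protein Prf1 (-1.63) and Cd4 (-1.03) were lower and Nkg7 was higher, fewer than the 18.5% lower over all genes. The median of both lists was near -1, -1.12 for B lineage and -1.32 for T and NK genes. The defining B cell factors Ebf1 and Pax5 were not among the genes tested. The sums over 3 B markers (4.24 to 5.84 times the 75th percentile native, 8.65 to 9.69 ERt2, with Cd79b in it) and 6 T and NK markers (9.71 to 14.5 native, 36.9 to 49.6 ERt2, with Nkg7 in it) did not overlap between groups.

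Genes of the Hox and Meis homeobox family, which keep progenitors immature, were lower in 6 of 20 cases (Meis3, Hoxb3, Meis1, Hoxa5 and Hoxa7 among them) and higher in 0 (6 and 3 at an unadjusted p under 0.05 in limma), with a median of -0.10 that was above 0 in 5 alternatives, up to 0.40 with GC of at least 40%. The share lower over all genes was 18.5%. Meis1, the partner of HOXA9, read 4.34, 4.10, 4.24 and 4.66 on native arrays and 3.43 and 2.60 on ERt2 arrays, apart by -1.32 (SE 0.32, adjusted p 0.00956). Leaving out the second ERt2 array gave it an adjusted p of 0.0502. Hoxb3 was at least 1.15-fold lower (adjusted p 0.00334) and Hoxa5 lower by 1.15 (adjusted p 0.00954), and both calls were lost after another background correction (0.989 and 0.302), that of Hoxb3 also with no minimum of GC (0.0832). Meis3 was lower by 2.13 (adjusted p 1.38e-05), while its second probe differed by 0.11.

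Several immediate early genes were far lower in ERt2 GMP. Of 33 immediate early and heat shock genes, 9 were lower (Egr1, Fosb, Fos, Dusp1, Jun, Klf2, Btg2, Jund and Ier3) and the chaperone Hsp90ab1 alone was higher, by 0.43. Over all genes 18.5% were lower. Egr1, a zinc finger factor, read 4.27, 0.47, 5.14 and 6.58 on native arrays and -3.11 and -6.10 on ERt2 arrays (difference -8.72, SE 2.01, adjusted p 0.0069), and since only 1 of the 2 ERt2 arrays was well above background the size of its fall is uncertain. Fos, a subunit of the AP-1 dimer, read 5.02, 2.69, 4.70 and 5.56 against -1.07 and -2.50 (difference -6.28, SE 1.42, adjusted p 0.00644). Jun, its partner, read 6.21, 4.16, 7.20 and 8.15 against 2.34 and 0.55 (difference -4.99, SE 1.13, adjusted p 0.00641). The second native array was the lowest native array for all 3 genes and the fourth the highest, and every native array stayed above both ERt2 arrays. Fosb was lower by 7.35 (SE 1.87, adjusted p 0.0112) and Dusp1, the phosphatase that switches off MAP kinases, by 5.01 (SE 1.03, adjusted p 0.00397). The call of Ier3 was lost in 7 of the 23 alternatives and that of Btg2 without the second ERt2 array (0.0733). The list's median was -1.70, -0.79 against slide 1 and -2.56 against slide 2.

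The cAMP response element, TGACGTCA, is bound by CREB and ATF factors and stood in 2 of 27 promoters found for the measured immediate early and heat shock genes, against 1.55% of all promoters. Both, of Dusp1 and of Btg2 (an antiproliferative gene, lower by 3.12), belonged to the genes that were lower and are shown with that element in capitals, 250 bases before the start on the minus strand (RefSeq, GRCm38.p6), at chr17:26508473-26508722 and chr1:134079156-134079405.
Dusp1: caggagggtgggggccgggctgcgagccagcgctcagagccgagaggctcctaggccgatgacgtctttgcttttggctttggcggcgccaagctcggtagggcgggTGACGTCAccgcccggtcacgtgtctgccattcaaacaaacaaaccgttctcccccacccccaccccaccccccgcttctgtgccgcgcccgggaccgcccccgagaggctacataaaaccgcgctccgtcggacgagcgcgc
Btg2: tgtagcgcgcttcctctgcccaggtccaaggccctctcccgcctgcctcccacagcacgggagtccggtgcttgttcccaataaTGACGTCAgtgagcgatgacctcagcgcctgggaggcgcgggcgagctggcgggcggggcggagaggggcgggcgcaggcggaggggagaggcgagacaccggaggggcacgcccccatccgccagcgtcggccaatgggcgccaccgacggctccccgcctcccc
In Dusp1 the element lay 143 to 136 bases before the start and in Btg2 166 to 159 bases before it. Of the 8 promoters found for genes of this list that were lower, 2 held it. The same letters stand in the H2-Aa promoter shown above, whose gene was higher, so they are not particular to genes that were lower.

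Genes of protein folding and export in the endoplasmic reticulum (ER) were higher together. Of 29 measured, 17 were higher and 0 lower (20 and 0 at an unadjusted p under 0.05 in limma), with a median of 0.73 (0.61 and 0.84 against slides 1 and 2). The share higher over all genes was 20.2%. After GC correction 9 were higher. Selenos, an ER membrane selenoprotein of the degradation pathway, read 1.85, 1.77, 1.93 and 2.00 on native arrays and 3.11 and 3.29 on ERt2 arrays (difference 1.32, SE 0.16, adjusted p 0.000169). Calr (calreticulin), a lectin chaperone, read 4.30, 4.57, 4.27 and 4.01 against 5.36 and 5.75 (difference 1.27, SE 0.25, adjusted p 0.00323). The groups were apart for both. P4hb, a protein disulfide isomerase, was higher by 1.31 (adjusted p 0.00652). Xbp1 and Atf6, sensors and effectors of the unfolded protein response, were higher by 1.21 and 1.03.

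The ER stress response element, through which ATF6 acts (CCAAT and CCACG with 9 bases between them, on either strand), stood in 10 of 25 promoters found for the measured genes of this list and in 0.113% of all promoters (37 of 32851). It was in 5 of the 16 promoters of genes that were higher and in 5 of the other 9. The promoters of 3 higher genes are shown with the element in capitals, which here reads on the opposite strand: Calr at chr8:84846932-84847181 (minus strand), Creld2, an ER thiol oxidoreductase, at chr15:88819396-88819645 (plus strand) and Derl3, of ER degradation, at chr10:75893148-75893397 (plus strand), all RefSeq, GRCm38.p6.
Calr: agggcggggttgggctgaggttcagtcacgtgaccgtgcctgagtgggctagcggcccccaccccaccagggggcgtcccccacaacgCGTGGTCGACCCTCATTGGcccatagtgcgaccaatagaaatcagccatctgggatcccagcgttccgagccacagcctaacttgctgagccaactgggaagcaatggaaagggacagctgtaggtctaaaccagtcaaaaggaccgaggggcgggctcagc
Creld2: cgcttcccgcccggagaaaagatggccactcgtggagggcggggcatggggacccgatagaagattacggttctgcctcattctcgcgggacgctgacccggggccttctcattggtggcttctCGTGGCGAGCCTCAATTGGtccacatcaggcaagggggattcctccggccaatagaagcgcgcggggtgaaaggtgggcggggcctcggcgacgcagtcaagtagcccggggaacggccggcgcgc
Derl3: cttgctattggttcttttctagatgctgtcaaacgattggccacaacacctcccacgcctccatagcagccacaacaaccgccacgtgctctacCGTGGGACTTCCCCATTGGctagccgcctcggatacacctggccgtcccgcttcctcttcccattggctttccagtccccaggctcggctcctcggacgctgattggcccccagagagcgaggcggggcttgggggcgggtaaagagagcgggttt
The 3 genes were higher by 1.27, 1.05 and 0.92.

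Glycolytic enzymes and their transporters were often higher: of 36 glycolysis and hypoxia genes 17 were higher and 4 lower (Ier3, Aldoc, Kdm3a and Hk1), with a median of 0.50 (9 higher and 4 lower after GC correction). Over all genes 20.2% were higher and 18.5% lower, against which the counts of this and the following lists are to be read. Hk3, the hexokinase of myeloid cells, read 3.34, 3.27, 2.12 and 2.18 on native arrays and 4.72 and 4.87 on ERt2 arrays (difference 2.07, SE 0.43, adjusted p 0.00409). Pkm, pyruvate kinase, was higher by 1.63 (SE 0.26, adjusted p 0.000894). Of 34 oxidative stress genes 9 were higher, among them Gsr (glutathione reductase, 1.8, adjusted p 0.00213) and G6pdx, the first enzyme of the pentose phosphate pathway (1.35, adjusted p 0.00672, and 0.0552 after GC correction), and Cat and Txn1 were lower. After GC correction 5 genes of that list were higher and 0 lower. Of 42 genes of oxidative phosphorylation 12 were higher and 2 lower (Atp5o and Cox6c), and 8 and 1 after GC correction. In that list Cox7c, higher by 1.10 with the probe used, had other probes at -1.86 and -1.52 and so no settled direction. Of 33 cholesterol genes 6 were higher and 3 lower, no larger shares than over all genes. The synthesis genes Fdft1, Tm7sf2, Ebp, Hsd17b7 (0.0524 after another background correction and 0.0872 with the mean of its probes) and Mvd were among the higher, Mvd by 1.70 (adjusted p 0.000129), and the efflux pumps Abca1 and Abcg1 among the lower, with differences of -1.70 (adjusted p 0.0044) and -1.21 (adjusted p 0.00259).

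The shares of mitosis and replication genes that were higher lay near the 20.2% of all genes. Of 54 mitosis genes 11 were higher and 0 lower (22 and 1 at an unadjusted p under 0.05 in limma, median 0.57, 0.28 against slide 1 and 0.84 against slide 2), and of 51 replication genes 11 were higher and 5 lower (Cdc6, Gins3, Pola1, Mcm2 and Mcm3). After GC correction 5 mitosis genes were higher and 1 lower, and 2 replication genes were higher and 2 lower. Ube2c, which marks mitotic cyclins for destruction, read 2.06, 2.11, 1.91 and 1.06 on native arrays and 3.22 and 3.51 on ERt2 arrays (difference 1.58, SE 0.33, adjusted p 0.00411). Cdc6, which loads the replicative helicase, was lower by 1.79 (adjusted p 0.000676), though its second probe differed by -0.08. Of 34 histone genes 11 were higher and 8 lower, with near-identical copies that share probes. After GC correction 4 histone genes were higher and 8 lower, and their median of 0.60 became 0.12. Ribosomal proteins numbered 22 higher and 3 lower of 64 (Rpl4, Rps3 and Rpl5 being lower), but only 3 higher and 3 lower passed after GC correction, and the median of 0.38 became -0.03 under quantile normalization. Among 48 ribosome assembly genes 12 were higher and 5 lower (Ubtf, Fbl, Npm1, Taf1d and Nop58), and after GC correction 4 and 3. The call of Ubtf was lost in 4 of the 23 alternatives.

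Of 47 antiviral interferon genes 9 were lower and 5 higher, against 18.5% lower and 20.2% higher over all genes, with a median of -0.42 (-0.62 and -0.08 against slides 1 and 2). Ifit1, which binds foreign RNA, read -1.37, -0.60, -1.86 and -1.86 on native arrays and -4.32 and -4.09 on ERt2 arrays (difference -2.79, SE 0.39, adjusted p 0.000401). Ifi44 was lower by 2.55 (adjusted p 0.00587) and Oas2, an oligoadenylate synthetase, by 1.54 (adjusted p 0.015, and 0.0596 without the first ERt2 array). Ifi35, Sp100, Lgals3bp, Bst2 and Ly6e were the higher members, by 0.74 to 1.01. After GC correction 1 gene of this list was higher and 9 were lower. Among genes induced by interferon γ, the GTPase Iigp1 was lower by 3.06 (adjusted p 2.05e-05) and the checkpoint ligand Cd274 (PD-L1) by 1.97 (adjusted p 0.00291), in a list of 31 with 6 higher and 4 lower, whereas the immunoproteasome subunits Psmb8 and Psmb9 were higher by 1.25 (adjusted p 0.000716) and 0.90 (adjusted p 0.00204, and 0.066 after GC correction). The median of that list, -0.13, turned to 0.06 with the array median as the scale, and after GC correction 3 of its genes were higher and 3 lower. In the Toll-like receptor and NF-κB list 7 of 33 were higher, among them Tlr4 (2.06) and Tlr1 (2.43, adjusted p 0.0498, which 8 of the 23 alternatives took past 0.05), and 6 lower (Il6, Ccl2, Tnfaip3, Tlr9, Relb and Nfkbie). After GC correction 2 genes of that list were higher and 7 lower. Without the second ERt2 array the calls of Ccl2 and Tnfaip3 were lost (0.142 and 0.0724), and that of Ccl2 in 4 alternatives in all.

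In the remaining lists the counts are to be read against 20.2% higher and 18.5% lower over all genes, and several lie near or below these shares. Of 31 p53 target genes 6 were higher and 3 lower, with the nucleotide excision repair gene Xpc higher by 1.39 (adjusted p 0.000712) and Gadd45a lower by 1.99 (adjusted p 0.00978). Of 32 genes of the integrated stress response and amino acid supply 8 were higher and 2 lower, among them the glutathione-degrading Chac1 (3.48, adjusted p 0.0056, well above background on 3 of 4 native arrays) and Phgdh, the first enzyme of serine synthesis (1.33, adjusted p 0.00156). Of 40 DNA repair genes 10 were higher and 5 lower, among the latter the recombination gene Rad51c (-2.21, adjusted p 0.00609). Of 23 genes that brake or drive the cell cycle 4 were higher, E2f1 and E2f2 among them, and 5 lower, Cdk6 among them. Of 38 cytokine receptor genes 7 were higher, Il18rap by 2.17 (adjusted p 0.000396), and 3 lower. Of 39 adhesion genes 10 were higher, Alcam by 2.61 (adjusted p 3.11e-05), and 3 lower. Of 10 stroma and endothelium genes the leptin receptor Lepr (-3.38, adjusted p 0.00109) and the VEGF receptor Kdr (-0.94) were lower and Pecam1 was higher by 0.85 (adjusted p 0.0357, which 8 of the 23 alternatives took past 0.05). Of 14 clock genes the repressor Nr1d2 (-1.84, adjusted p 5.49e-05) and Dbp (-0.56, lost in 9 of the 23 alternatives) were lower and Per3 was higher by 1.45 (adjusted p 0.00645, and 0.079 after another background correction). Of 16 glucocorticoid-responsive genes Dusp1 was lower and the decoy receptor Il1r2 was higher by 2.87 (adjusted p 0.0477, which 10 of the 23 alternatives took past 0.05).

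The oestrogen receptor gene was higher in ERt2 GMP, as 1 of the 12 largest rises among genes with a full symbol that were well above background on all 6 arrays. Esr1 read -4.43, -4.44, -4.68 and -4.45 on native arrays and -1.09 and -0.65 on ERt2 arrays, at chr10:5489352-5489411 (mm9), for a difference of 3.63 (SE 0.25, 12.4-fold, adjusted p 2.01e-06). Native arrays lay close together and both ERt2 arrays were far above them. A second detected Esr1 probe differed by 0.95. In RUNX1-ERt2 GMP, whose virus carries the same receptor domain, the probe read 0.23 and 0.16, above wild type by 3.50 (SE 0.25, adjusted p 5.58e-06). Whether the probe reads the viral transcript was not tested. Of 10 measured genes of oestrogen response, Greb1 (-1.06, adjusted p 0.0369) and Gper1 (-0.65, adjusted p 0.0354) were lower and 7 did not pass. The calls of Greb1 and Gper1 were lost in 9 and 8 of the 23 alternatives, and Gper1, well above background on 1 of 2 ERt2 arrays, turned to 0.02 after another background correction.

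At the imprinted Dlk1-Meg3 locus 3 genes were lower and no other of the 13 measured imprinted genes passed. Meg3, a maternally expressed long noncoding RNA, read 0.15, -0.31, -1.84 and -1.64 on native arrays and -4.70 and -5.96 on ERt2 arrays (difference -4.42, SE 1.03, adjusted p 0.00728) with 1 of 2 ERt2 arrays well above background, and its second probe differed by -1.10. Its neighbour Mirg was at least 1.8-fold lower (adjusted p 0.00225, and 0.61 after another background correction), and Dlk1, a paternally expressed Notch-like protein, was lower by 1.83 (adjusted p 0.00605). Sex-linked genes overlapped between the groups: 0 of 8 passed, also at an unadjusted p under 0.05 in limma, Xist differed by 0.04 and the Y-linked Ddx3y by 0.19, and both were measured on every array of each group.

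Rises outside these lists included the neighbouring lectin genes Clec4b1 (4.15, adjusted p 0.000735) and Clec4b2 (3.78, adjusted p 0.0395), which may share signal as close relatives. Clec4b2 lost its call without the first native array (0.0605) and without either ERt2 array (0.116 and 0.0873). Glt1d1, a glycosyltransferase gene, was higher by 4.08 (adjusted p 0.00308), the p38δ kinase gene Mapk13 by 3.72 (adjusted p 0.00181) and Mogat2, a monoacylglycerol acyltransferase, by 3.71 (adjusted p 0.00559). Prom1 (CD133), a membrane glycoprotein, was higher by 3.51 (adjusted p 0.00582), and Lrg1, a glycoprotein of neutrophil granules, by 3.61 (adjusted p 0.0249, and 0.0857 and 0.0579 without either ERt2 array). Of genes not well above background on any native array, Mreg (melanoregulin) was at least 23.7-fold higher (adjusted p 0.000134), Wnt4 at least 7.17-fold (adjusted p 0.0178, and 0.0697 without the first ERt2 array) and Rarb, a retinoic acid receptor, at least 6.28-fold (adjusted p 0.00265, and 0.738 with no filter on dim probes).

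Some large falls outside the lists were even across native arrays. Akr1b8, an aldo-keto reductase, read 0.48, 0.58, 0.49 and 0.66 on native arrays and -4.86 and -4.80 on ERt2 arrays (difference -5.38, SE 0.19, 41.7-fold, adjusted p 1.16e-08). Iqsec3, an exchange factor for ARF GTPases, read 1.49, 1.96, 1.25 and 0.66 against -4.28 and -3.95 (difference -5.46, SE 0.49, adjusted p 1.76e-05). The arrays of each group were close together and the groups lay far apart. Rab3c, a vesicle GTPase, was lower by 4.89 (adjusted p 3.86e-05), Pkib, an inhibitor of protein kinase A, by 4.36 (adjusted p 1.09e-07) and the cilium gene Cfap300 by 4.19 (adjusted p 1.25e-05). Native values of Phlda1 (-4.19) and Cmya5 (-4.13) were spread more widely, with an SD of 1.58 and 1.19 (n = 4). Several other genes were below background on both ERt2 arrays: Zfp985 was at least 33.9-fold lower (adjusted p 1.21e-08), Btg1c at least 21.2-fold (adjusted p 5.56e-07), the GABA receptor gene Gabra2 at least 18.1-fold (adjusted p 0.00476, and 0.0595 after another background correction) and Serpinb1c at least 16.1-fold (adjusted p 2.33e-07). Zfp981 and Zfp985 belong to a cluster of near-identical zinc finger genes, as Btg1c and Serpinb1c have close copies, so their probes may read relatives.

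The transplanted RUNX1-ERt2 arrays and the native wild-type arrays share no array with the comparison above, though the native arrays share slides 1 and 2. They differ by the same procedures and by slide (4 against 1 and 2), with RUNX1-ERt2 in the transplanted cells and intact Runx1 in the native ones. Among the same 17212 genes, chosen by detection in ERt2 or native Runx1-deleted GMP, 1937 were higher there (11.3%) and 2556 lower (14.9%). Of all genes 6.63% were higher in both contrasts and 11.1% lower in both, 1141 and 1915 genes, and 129 (0.749%) were called in opposite directions. Thus 60.2% of the genes lower in ERt2 GMP were also lower in the second contrast, and 32.8% of those higher were also higher there. As shares of the second contrast's calls, 74.9% of its lower and 58.9% of its higher genes were shared. Across the 17212 genes, no independent replicates of each other, both sets of differences correlated at 0.65 (Pearson) and 0.6 (Spearman), with slides and probe GC in common. Among genes lower in both were Akr1b8 (-3.40), Iqsec3 (-4.10), Pkib (-3.81), Dntt (-6.47) and Meis3 (-1.13), with the second contrast's difference in brackets, and Serpinb1c and Gabra2, for which no array of either transplanted group was well above background.

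The test of the difference between the contrasts passed for 1335 genes (7.76%), 607 with a higher and 728 with a lower value in ERt2 minus native GMP. In that test RUNX1 and slide cannot be told apart, since ERt2 arrays lay on slide 3 and RUNX1-ERt2 arrays on slide 4. With the replicate number as a block in place of slide, 3331 genes passed, and the 3056 genes called alike in both contrasts became 5588. Granule and monocyte genes were among those on the first side: the difference of contrasts passed in 7 of 15 primary granule, 5 of 17 GMP identity, 5 of 30 late neutrophil and 6 of 25 monocyte genes, higher in each case and lower in 0, against 3.53% of all genes. Other lists lay there too, with 10 of 38 cytokine receptor genes (1 lower) and 7 of 36 glycolysis and hypoxia genes (2 lower). For Fcnb it was 6.20 (SE 1.29, adjusted p 0.0167), since RUNX1-ERt2 GMP read -2.79 and -3.03 against a wild-type mean of -0.88. For Hp it was 3.43 (adjusted p 0.0261), for Vcam1 4.16 (adjusted p 0.0225) and for Nkg7 2.95 (adjusted p 0.00224). For Camp it did not pass (4.40, SE 1.74, adjusted p 0.17). Of the ER chaperone list 4 of 29 passed on the higher side and 0 on the lower.

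On the other side, stem and megakaryocyte genes passed in 5 of 26 and 5 of 34 cases, lower in each, against 4.23% of all genes. They were not alone: 8 of 31 p53 targets (1 higher), 6 of 24 basophil and mast cell genes (4 higher) and 5 of 31 interferon γ genes (0 higher) also passed as lower. For Gp1ba the difference of contrasts was -3.77 (adjusted p 0.0235) and for Esam -3.14 (adjusted p 0.0467). Podxl, a sialomucin of progenitors, had a value of -8.52 (adjusted p 0.00297): it did not pass in ERt2 minus native GMP (adjusted p 0.0578) and was higher in RUNX1-ERt2 minus wild-type GMP (adjusted p 0.00171), but it was not well above background on either ERt2 array and was so on only 1 of 4 wild-type arrays, which leaves the size uncertain. Dlk1 was lower by 1.83 here and higher by 4.37 there (difference of contrasts -6.20, adjusted p 0.000178). The haem gene Alas2 was higher in both, by 2.57 and 4.80, and did not pass, with a difference of contrasts of -2.23 (adjusted p 0.143), and 13 of 35 erythroid genes were higher in the second contrast. The difference of contrasts passed for 2 of the 35, both lower. None of the 33 immediate early and heat shock genes passed, with Fos at -6.28 and -3.76 and a difference of contrasts of -2.52 (adjusted p 0.498).

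**Figure D4:**
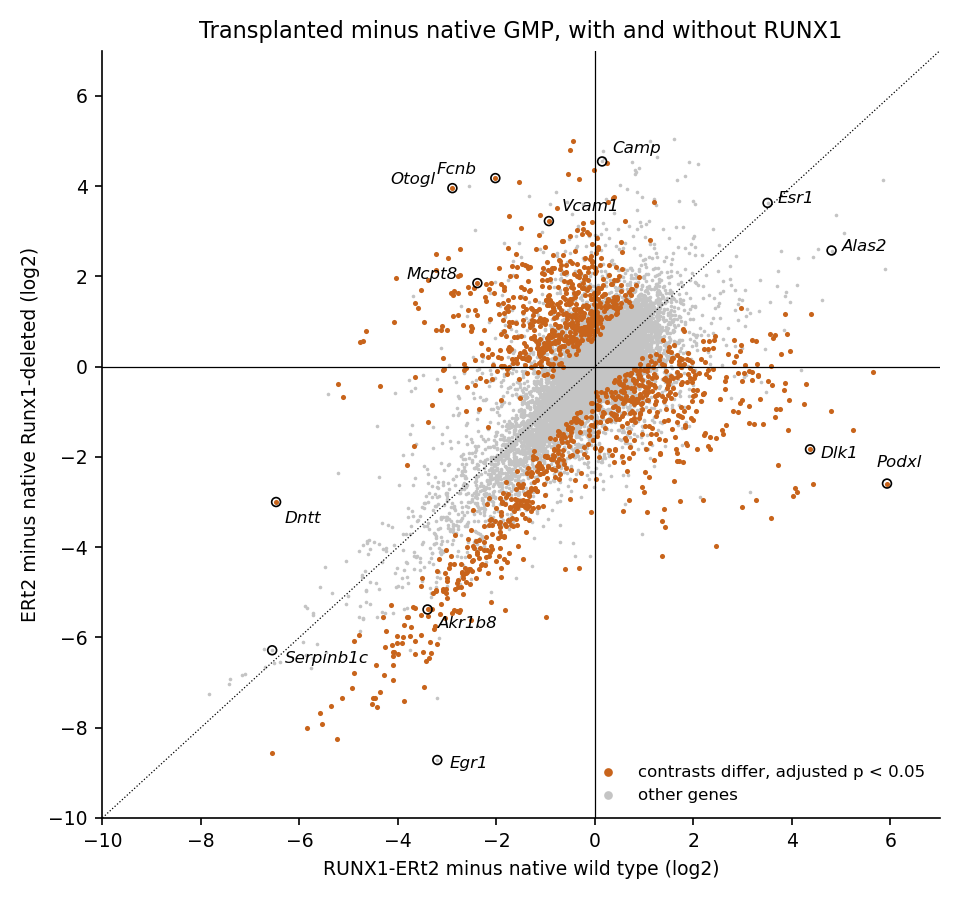
Each of the 17212 tested genes by its difference in RUNX1-ERt2 minus native wild-type GMP (horizontal axis, log2) and in ERt2 minus native Runx1-deleted GMP (vertical axis, log2), coloured where the contrasts differed at an adjusted p under 0.05, with the line of equal differences dotted. Akr1b8, Serpinb1c and Esr1 lie in the quadrants of equal sign, Fcnb, Mcpt8 and Vcam1 at upper left, Dlk1 and Podxl at lower right.

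**Figure D5:**
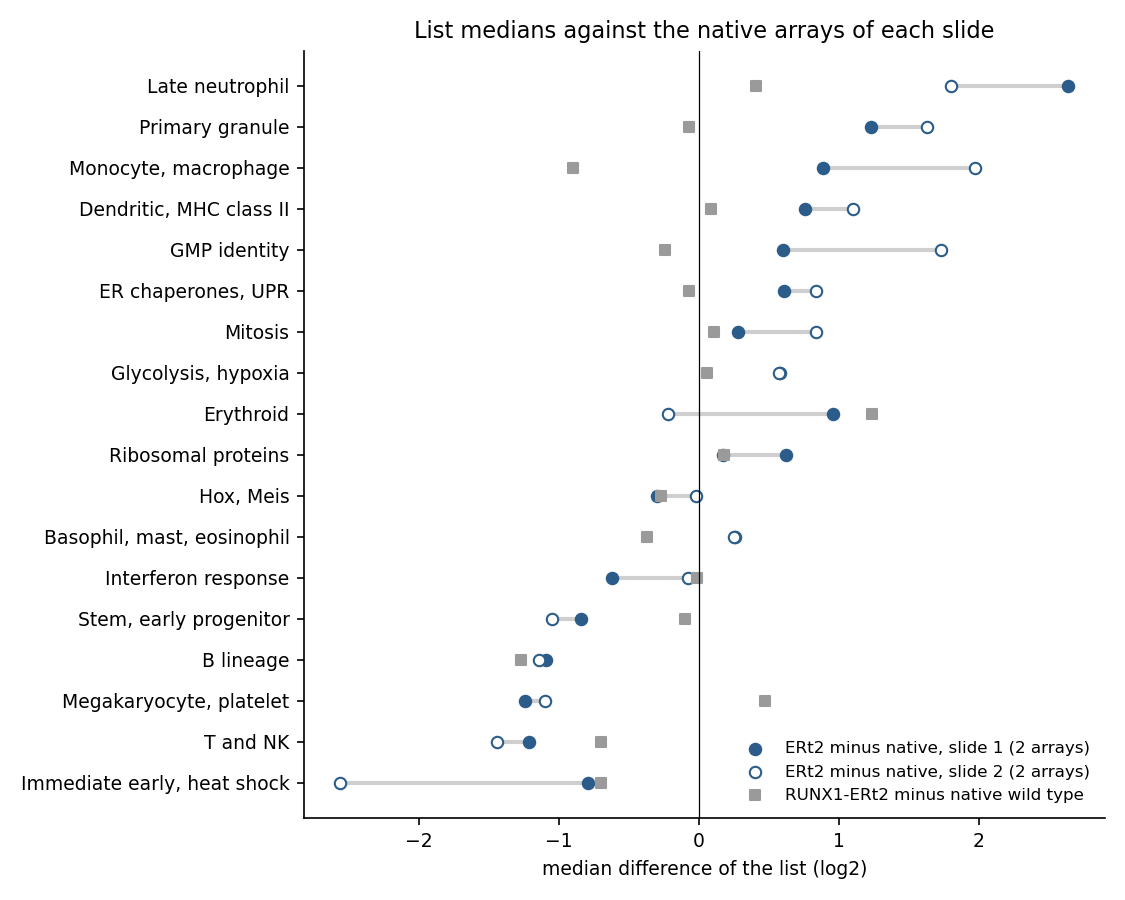
Median difference (horizontal axis, log2) of 18 gene lists (vertical axis) for ERt2 minus the native arrays of slide 1 (filled circles) and of slide 2 (open circles), and for RUNX1-ERt2 minus native wild-type GMP (squares). Circles of the immediate early list are farthest apart, -0.79 and -2.56, the erythroid circles lie on both sides of 0, and the squares of the granulocyte and monocyte lists lie between -0.90 and 0.41.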

How the data were processed

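RNA of sorted GMP was hybridised to 12 one-colour Agilent arrays (Cy3). The deposited intensity values are background-subtracted processed signals of Agilent Feature Extraction, version 10.7.3.1 per the file headers and 9.1 per the submitters' processing notes. A second deposited table of the same arrays holds the authors' values as a linear ratio of the processed signal to a value near each array's median (found by comparison with the scanner values, since no source states it). It served only as an alternative, after log2. Its column medians were 0.91 to 0.94, and its 8 native columns each match the array of another replicate number of the same group, while the transplanted columns match their own.

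Control spots and flagged spots were left out and no spot was saturated. Signals were scaled to each array's 75th percentile and then put on the log2 scale. Of 39429 probes, 38469 with at least 34% GC were used, 1 probe (the brightest) per gene. A probe was kept where all native Runx1-deleted arrays or both ERt2 arrays were well above background. Genes detected only in wild-type or RUNX1-ERt2 GMP were therefore not tested. Probes were named through RefSeq by accession (27234), symbol (3576) or synonym (565), and the array's own name stayed on 8054. Probe positions are those of the files (mm9).

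Group means of all 12 arrays were fitted with limma 3.58.1 (R 4.3.3), with slide as a random block (correlation 0.301), and p-values were adjusted over 17212 genes by Benjamini-Hochberg at 0.05. The slide correlation rests on slides 1 and 2 alone. The fit was tested on simulated data, where that correlation came out too low, so adjusted p-values may be too small. The number of arrays limits precision, with 2 in the ERt2 group. Promoters are RefSeq's, GRCm38.p6, the 250 bases before each start, searched on both strands.

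The comparison, its members and the 39 gene lists were chosen with earlier results of these data known. Genes named with full statistics are the 12 largest rises and falls without overlap among called genes well above background on all 6 arrays (placeholder symbols such as Gm or Rik left out), the 6 largest bounds each way among called genes below background on all arrays of 1 group, up to 4 members per list, all members of the Runx, sex-linked and oestrogen lists, and the 5 largest differences of contrasts each way. Other called list members were named after their values were seen. Some genes that the rule or the lists hold are not reported here, though they count in the totals of their lists. Replicate numbers did not pair ERt2 with native arrays (correlation 0.022), whereas same-numbered wild-type and Runx1-deleted arrays, which share slides, deviated together (correlations 0.235 to 0.698). Background correction, scaling, filters, GC, slide, replicate block, probe averaging and left-out arrays were varied in 23 settings.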

Additional observations from a re-analysis of the deposited data

Results flagged for a closer look

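Among 188 genes whose 4 native arrays were examined, 6 had a single native array far from the other 3, where chance gives about 1 in 20. These were the third array for Esr1 (-4.68), Nop16 (1.84) and Gstm1 (3.21), the fourth for Igsf6 (1.31) and Meis3 (-2.35), and the first for Kdr (1.55).

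For 47 of the genes named by rule and reported here the difference between ERt2 and native Runx1-deleted GMP departed, by limma's test of the difference itself, from that between RUNX1-ERt2 and native wild-type GMP. Each value below is the first log2 difference minus the second. Granule and myeloid genes were higher in the first, with Fcnb at 6.20, Igsf6 at 3.68, Prss57 at 3.65, Hp at 3.43, Pglyrp1 at 3.25, Nkg7 at 2.95 and Vcam1 at 4.16. The lectin gene Clec4b1 stood at 4.47 and the basophil proteases Prss34 and Mcpt8 at 4.80 and 4.24. Metabolic and stress genes on the same side were Hk3 (2.37), Gsr (2.13), Pkm (1.66), Xpc (1.40), Phgdh (1.30) and Selenos (0.95). Also higher were Otogl (6.85), Ttll9 (6.00), Tmem178 (5.72), Glt1d1 (5.62), Mreg (5.45), Rarb (5.31), Prom1 (4.28), Dntt (3.47), Alcam (2.55), Il18rap (1.61) and Runx3 (1.40). For Otogl, Mreg, Rarb, Ttll9 and Tmem178 at least 1 of the 4 groups had no array well above background, so their values are fitted numbers whose size is uncertain.

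Lower in the first were Podxl (-8.52), Clca3a2 (-7.03), Clca3a1 (-6.88), Pcnx2 (-6.75), Vpreb2 (-6.43) and Dlk1 (-6.20). Clca3a1 and Clca3a2 are close copies whose probes may share signal. Progenitor, platelet and cytokine genes on this side were Gp1ba (-3.77), Esam (-3.14), Gata3 (-2.09), Il6 (-4.57), Il1rl1 (-3.06), Cd274 (-2.31), Oasl2 (-1.64), Mirg (-3.64) and Meis3 (-1.0). The remaining values were -3.10 for Btg1c, -2.28 for Sult2a8, -2.23 for Zfp985, -1.98 for Akr1b8 and -1.51 for Shroom1, all lower in both contrasts. On this side the same held for Podxl, Pcnx2, Vpreb2, Il6, Mirg, Btg1c, Sult2a8, Zfp985 and Shroom1, and the size of their values is likewise uncertain.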

How the results depend on the processing

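Of 165 named genes that passed, 94 kept their direction and call in every one of the 23 settings in which they were tested, and 58 of these were tested in all 23 (130 of the 165 genes remained with probes well above background on all arrays and 118 with GC of at least 40%). Most calls were lost without the second (38) or first (29) ERt2 array, after removal of the GC trend (25) and after normexp background correction (22). The count of 6663 genes became 12298 with no filter on dim probes. Higher genes (3482) became 8650 with no such filter, 1723 with the GC trend removed, 5378 with slide as a fixed term and 5360 with the replicate number as a block. Lower genes (3181) became 1976 after normexp and 1719 with GC of at least 40%. Genes changed alike in both contrasts (3056) became 1980 after normexp, 5465 with slide fixed and 5588 with the replicate block. Genes whose contrasts differed (1335) became 744 after normexp, 836 with GC of at least 40%, 2041 without the slide block, 2998 with slide fixed, 2337 with native arrays of slide 2 alone and 3331 with the replicate block. With 1 array left out, the ranges were 4696 to 6845, 2129 to 3513 higher, 2567 to 3332 lower, 2569 to 3329 alike and 787 to 1477 differing. The lowest count of higher genes came without the second ERt2 array; a lone ERt2 array is assumed to vary like the other groups. Rises against falls were 4477 to 2513 with the array median, 4317 to 2535 in the authors' table, 8650 to 3648 without the dim filter and 3535 to 1719 with GC of at least 40%.

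Direction turned for Gper1 (0.02, normexp), and, with no minimum of GC, for F10 (-3.33) and Cox7c (-1.53), where another probe was brightest. List medians turned for ribosomal proteins (-0.03, quantile normalization), p53 targets (0.12 array median, 0.11 authors' table, 0.04 GC of at least 40%, and from -0.1 to 0.04 with 1 ERt2 array left out), the Toll-like receptor list (-0.08, GC trend removed), imprinted genes (-0.31, GC trend removed, and -0.01, mean of all probes), adhesion (-0.04, slide 1 alone) and genes that brake or drive the cell cycle (-0.01, slide 2 alone). Medians that also crossed 0, with main values within the spread of the native arrays, were those of basophil and mast cells (-0.18, up to 0.49 without the third native array, 0.31 with the replicate block), Hox and Meis (-0.10, up to 0.40 with GC of at least 40%), interferon γ (-0.13, up to 0.09 in the authors' table), erythroid (0.48, -0.22 on slide 2 alone and -0.12 without the first ERt2 array), cholesterol (0.03, down to -0.13 without the second ERt2 array) and glucocorticoid genes (0.01, down to -0.25 on slide 2 alone). The cause was not tested. Dim ERt2 arrays limit what can be said of genes near background.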
